A study of Mus musculus with 10 samples.

Results

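Active enhancers that carried no Gtf3c1 before or after depolarization were examined in primary cortical neurons of the mouse strain C57BL/6J. A Gtf3c1-free enhancer was an H3K4me1 region of untreated neurons, on chromosomes 1 to 19, that overlapped an H3K27ac region both with KCl and without treatment. It had to lie more than 1 kb from the start or end of any RefSeq gene and to overlap no Gtf3c1 region of either condition. A shared base was enough for an overlap. Of 189576 H3K4me1 regions on these chromosomes (192225 in the whole list), 157794 lay more than 1 kb from gene ends, and 39381 of these carried H3K27ac in untreated neurons. H3K27ac was listed again with KCl at 26177, called stable active enhancers here. The 9546 Gtf3c1-free enhancers were 36.5% of the stable active enhancers (95% interval 35.9 to 37.1) and 5.04% of the H3K4me1 regions. They were thus selected on the positions of the H3K4me1, H3K27ac and Gtf3c1 regions, and what follows directly from these is given as a description. The other stable active enhancers had Gtf3c1 in the KCl list only (2315), in the untreated list only (5206) or in both lists (9110). The last group, called Gtf3c1-bound below, served as the comparison.

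Day 6 cultures, held overnight in reduced serum (3%), either received 50 mM KCl for 45 min or were left untreated. Chromatin immunoprecipitation and sequencing was done with antibodies against Gtf3c1, Rpc155, H3K4me1 and H3K27ac, which gave 8 peak lists, 1 per antibody and condition. Total chromatin input was the control and was not analysed here. Per the design text each condition had 3 biological replicates, but the sources used here do not say whether peaks were called on their pool. With 1 list per condition no difference below has a replicate check, no p-value is given, and intervals cover counting error only. Read counts are not part of the lists, and sequencing depth is therefore unknown. On chromosomes 1 to 19 they held 57653 Gtf3c1 regions with KCl and 66174 without treatment, 4233 and 12511 Rpc155 regions, 190732 and 189576 H3K4me1 regions, and 57370 and 64770 H3K27ac regions.

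Nucleosomes at enhancers carry H3K4me1, and H3K27ac is added where the enhancer is active, so the pair of marks is a common working definition of an active enhancer. TFIIIC is the factor that recognises the A and B boxes inside tRNA genes and brings RNA polymerase III to them. Gtf3c1 is its largest subunit and contacts the B box, and Rpc155 is the largest subunit of RNA polymerase III. TFIIIC is also known at many sites that have no polymerase III gene. KCl depolarizes neurons, and the calcium that enters through voltage-gated channels switches on immediate-early genes.

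As a check of the labelled cell type, H3K27ac within 1 kb of a gene end was counted for marker genes. It was listed with KCl and without treatment at 15 and 15 of 15 glutamatergic markers and at 12 and 11 of 14 GABAergic markers. The counts were 6 and 7 of 10 for astrocytes, 8 and 5 of 10 for neural progenitors, 1 and 1 of 9 for the oligodendrocyte lineage, 0 and 1 of 10 for microglia, 1 and 1 of 8 for endothelium, and 2 and 2 of 15 for genes of non-neural tissues. Housekeeping genes had 10 and 9 of 10 and the RNA polymerase III machinery 28 and 28 of 28, and the share over all protein-coding genes was not counted. Acetylation was thus listed at the glutamatergic markers and at many, but not all, GABAergic, astrocyte and progenitor markers. These counts do not tell neurons from the other neural cells that the cultures may hold.

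The sequence of the enhancers can be read here only where a RefSeq start window lay within one. These windows run from 250 bases before to 50 bases after a transcript start (RefSeq, GRCm38.p6). The 1 kb limit was measured from the ends of whole genes, so a transcript start within a gene did not exclude a region. For a region with such a start, an enhancer and an internal promoter cannot be told apart here. At least 150 bases of such a window lay inside 108 Gtf3c1-free enhancers (1.13%, 0.929 to 1.36) and 289 Gtf3c1-bound enhancers (3.17%, 2.82 to 3.55), against 2.02% of all stable active enhancers. The 126 windows of the Gtf3c1-free enhancers and the 335 of the Gtf3c1-bound enhancers were searched on both strands for 4 motifs: a B box core, GTTCGANNC, a looser form, GTTCNANNC, which includes the first, the AP-1 site TGANTCA and the cAMP response element TGACGTCA. The windows shown are those of Gtf3c1-free and Gtf3c1-bound enhancers that held the B box core within the enhancer itself, since this is the element TFIIIC contacts. One Gtf3c1-free window with a cAMP response element and one with an AP-1 site are shown beside them, as sites of factors that act in depolarized neurons. Each runs 5′ to 3′ on the strand of its gene, and capitals mark the match on that strand or its complement.
Susd1 window, Gtf3c1-free, B box core, chr4:59438584-59438883, minus strand: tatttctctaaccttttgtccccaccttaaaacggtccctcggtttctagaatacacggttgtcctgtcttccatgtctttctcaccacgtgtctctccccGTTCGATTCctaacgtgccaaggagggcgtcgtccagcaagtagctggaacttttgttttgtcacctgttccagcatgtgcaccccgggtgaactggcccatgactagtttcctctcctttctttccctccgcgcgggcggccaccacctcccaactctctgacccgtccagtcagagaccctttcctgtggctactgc
Shisa5 window, Gtf3c1-free, cAMP response element, chr9:109054616-109054915, plus strand: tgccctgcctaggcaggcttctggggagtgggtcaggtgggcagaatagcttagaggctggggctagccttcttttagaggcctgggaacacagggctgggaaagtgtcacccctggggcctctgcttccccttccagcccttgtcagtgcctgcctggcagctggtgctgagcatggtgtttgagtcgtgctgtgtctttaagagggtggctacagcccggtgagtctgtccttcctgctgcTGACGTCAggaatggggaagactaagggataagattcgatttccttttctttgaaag
Gatad2a window, Gtf3c1-free, AP-1 site, chr8:69974334-69974633, minus strand: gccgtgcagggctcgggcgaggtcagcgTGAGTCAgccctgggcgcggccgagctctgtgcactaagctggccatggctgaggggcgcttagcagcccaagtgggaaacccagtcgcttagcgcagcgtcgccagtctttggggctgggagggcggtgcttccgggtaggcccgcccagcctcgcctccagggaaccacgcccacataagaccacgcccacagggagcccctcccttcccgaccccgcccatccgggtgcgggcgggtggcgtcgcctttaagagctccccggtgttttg
Smg9 window, Gtf3c1-bound, B box core on the complement, chr7:24399378-24399677, plus strand: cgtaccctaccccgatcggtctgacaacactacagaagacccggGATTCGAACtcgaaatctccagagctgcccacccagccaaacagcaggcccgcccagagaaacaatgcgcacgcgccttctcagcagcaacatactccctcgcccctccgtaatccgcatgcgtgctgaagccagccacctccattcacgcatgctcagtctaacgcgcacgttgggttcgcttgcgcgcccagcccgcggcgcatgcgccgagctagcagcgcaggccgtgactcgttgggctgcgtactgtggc
Prickle1 window, Gtf3c1-bound, B box core, chr15:93519471-93519770, minus strand: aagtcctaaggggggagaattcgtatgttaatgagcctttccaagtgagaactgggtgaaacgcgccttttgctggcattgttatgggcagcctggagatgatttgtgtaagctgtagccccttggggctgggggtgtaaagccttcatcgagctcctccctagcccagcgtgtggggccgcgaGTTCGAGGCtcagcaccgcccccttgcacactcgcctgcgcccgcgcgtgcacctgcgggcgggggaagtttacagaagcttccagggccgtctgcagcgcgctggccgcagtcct

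The B box core was in 2 of the 126 Gtf3c1-free windows (1.59%, 0.193 to 5.62) and in 2 of the 335 Gtf3c1-bound windows (0.597%, 0.0724 to 2.14), and 0.823% of all 31365 windows held it. Within the enhancer itself the match lay in 1 Gtf3c1-free and 2 Gtf3c1-bound windows. The looser form was in 11 (8.73%) and 28 (8.36%) windows, against 9.30% of all windows. AP-1 sites were in 12 (9.52%) and 28 (8.36%), against 7.85%, and cAMP response elements in 2 (1.59%) and 6 (1.79%), against 1.83%. The intervals of the Gtf3c1-free windows took in the share of all windows for each of the 4 motifs. These letters describe the windows only, because a match is not a binding site and the rest of each enhancer was not searched.

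The Susd1 window lay in a Gtf3c1-free enhancer, chr4:59437539-59438841, with an H3K27ac fold enrichment of 3.16 with KCl and 3.56 without treatment. Fold enrichment is the peak caller's ratio of the summit to its local background, as deposited by the authors, and the strongest region that touched the enhancer was taken from each list. The nearest Gtf3c1 region was 20264 bp away, although the window held the B box core. The Shisa5 enhancer, chr9:109054425-109054874, had 9.18 with KCl and 5.84 without treatment, with Gtf3c1 only 454 bp away. The Gatad2a enhancer, chr8:69974409-69974879, had 6.48 with KCl and 2.92 without treatment, and its nearest Gtf3c1 region was 12332 bp away. Gatad2a encodes a subunit of the NuRD chromatin complex. Gtf3c1-free enhancers with such a start, possibly internal promoters, had median H3K27ac fold enrichments of 4.39 with KCl and 3.56 without treatment. The other 9438 had 3.24 and 3.37.

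Gtf3c1 was often close to the Gtf3c1-free enhancers although it did not overlap them. The median distance to the nearest Gtf3c1 region of either list was 3210.5 bp, where adjacent regions count as 1 bp apart. Against the KCl list alone the median distance was 7122 bp, and against the untreated list alone 4450.5 bp. A Gtf3c1 region lay within 1 kb of 2655 enhancers (27.8%, 26.9 to 28.7), between 1 and 10 kb of 4295 and farther than 10 kb from 2596 (27.2%, 26.3 to 28.1). No Gtf3c1 lay within 50 kb of 406 (4.25%). By the rule all Gtf3c1-bound enhancers had a distance of 0, and 73.7% of all stable active enhancers had Gtf3c1 within 1 kb, so these shares describe the choice of the enhancers.

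An H3K27ac region that touched the enhancer held Gtf3c1 elsewhere along its length at 2435 Gtf3c1-free enhancers (25.5%, 24.6 to 26.4), against 70.4% of all stable active enhancers. In 1586 of these enhancers with KCl and 1763 without treatment, a touching H3K27ac region held Gtf3c1 of the same condition. The strongest Gtf3c1 region found there had a median fold enrichment of 4.48 with KCl and 4.63 without treatment. At Gtf3c1-bound enhancers the same measure was 4.48 and 4.84. The medians over every single Gtf3c1 region of the whole lists were 3.53 and 3.58. These are an unlike measure, because the strongest of several regions was not taken there. The label of enhancers never bound by Gtf3c1 thus held for the H3K4me1 region, but not for the whole acetylated domain at these 2435.

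**Figure D1:**
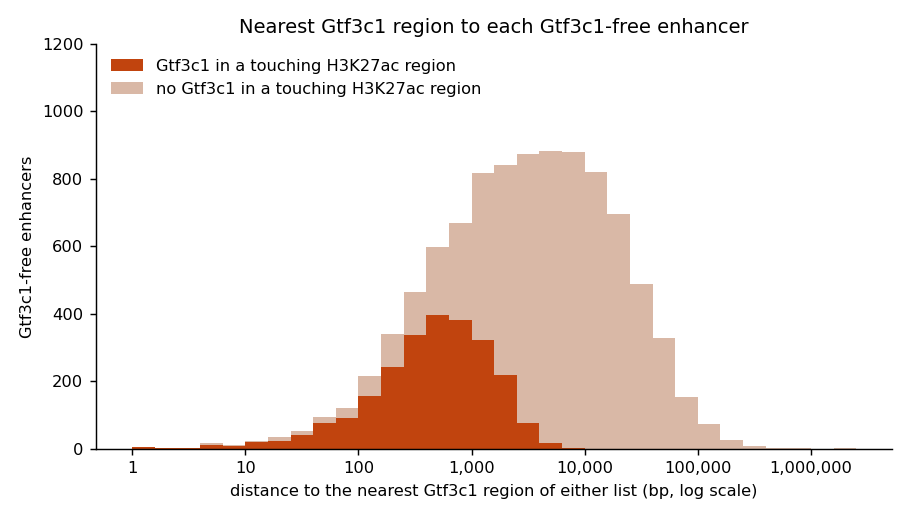
Histogram of the distance (bp, log scale) from each of the 9546 Gtf3c1-free enhancers to the nearest Gtf3c1 region of either list; the dark part of each bar counts enhancers whose touching H3K27ac region held Gtf3c1. The median distance was 3210.5 bp, and the 2435 dark enhancers lie mostly at the short distances.

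Values changed little across the threshold itself. At 366 Gtf3c1-free enhancers a Gtf3c1 region lay 100 bp or less away, and 438 stable active enhancers were kept out by an overlap of 100 bp or less. Median H3K27ac fold enrichment was 4.19 with KCl and 4.19 without treatment just inside the rule, and 4.32 and 4.44 just outside it. Their median widths were 767 and 817.5 bp. For the distance to genes, 126 Gtf3c1-free enhancers lay within the first 100 bp past the 1 kb limit and 189 otherwise fitting regions within the last 100 bp before it. In all, 3953 otherwise fitting regions lay within 1 kb of a gene end.

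Gtf3c1-free enhancers were narrower than Gtf3c1-bound ones. The H3K4me1 region had a median width of 1066.5 bp (middle 50% of enhancers 582.3 to 1655) in Gtf3c1-free enhancers and 2322.5 bp (1519 to 3435) in Gtf3c1-bound ones. A wider region has more room to meet a Gtf3c1 region, so the rule itself favours narrow ones. The Gtf3c1-free share of stable active enhancers was 69.4% under 500 bp, 57.5% at 500 to under 1000 bp, 45.1% at 1000 to under 1500 bp, 33.4% at 1500 to under 2000 bp and 14.6% at 2000 bp or more. The comparisons of H3K4me1, H3K27ac, Rpc155 and place inside genes are therefore also given within these bins of width, and the remaining ones are not.

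H3K4me1 was weaker as well, with a median fold enrichment in untreated neurons of 5.69 in Gtf3c1-free and 9.42 in Gtf3c1-bound enhancers. Within bins of width this gap was smaller. Under 500 bp both medians were 3.55, at 1000 to under 1500 bp they were 6.22 in Gtf3c1-free and 7.11 in Gtf3c1-bound enhancers, and at 2000 bp or more 8.53 and 11.2. H3K27ac followed the same order over all widths. With KCl its median fold enrichment was 3.24 (middle 50% 2.76 to 4.19) in Gtf3c1-free enhancers and 4.73 (3.38 to 7.70) in Gtf3c1-bound ones. In untreated neurons the medians were 3.39 (2.82 to 4.32) and 4.95 (3.67 to 6.98), so the middle parts of the distributions overlapped in both conditions. A fold enrichment of 6 or more was reached with KCl by 1331 Gtf3c1-free enhancers (13.9%) and 35.3% of Gtf3c1-bound ones, against 23% of all stable active enhancers. The untreated shares were 11.8% (1129 enhancers) and 34.8%, against 21.2%.

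The H3K27ac difference was seen in each bin of width. At 1000 to under 1500 bp the medians with KCl were 3.22 in 2163 Gtf3c1-free and 4.19 in 1102 Gtf3c1-bound enhancers, and in untreated neurons 3.21 and 4.32. At 2000 bp or more they were 3.38 in 1416 Gtf3c1-free and 4.79 in 5432 Gtf3c1-bound enhancers with KCl, and 3.43 and 5.08 in untreated neurons. The narrowest Gtf3c1-bound regions, under 500 bp, stood highest, with 9.59 with KCl and 7.62 without treatment, where Gtf3c1-free regions of that width had 3.38 and 3.68. Narrow Gtf3c1-free enhancers were those with Gtf3c1 most often alongside, since 48.4% of those under 500 bp and 9.82% of those of 2000 bp or more had Gtf3c1 in a touching H3K27ac region. Over all stable active enhancers, which include those chosen for an overlap with Gtf3c1, the shares were 63.9% and 83.7% and so ran the other way.

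**Figure D2:**
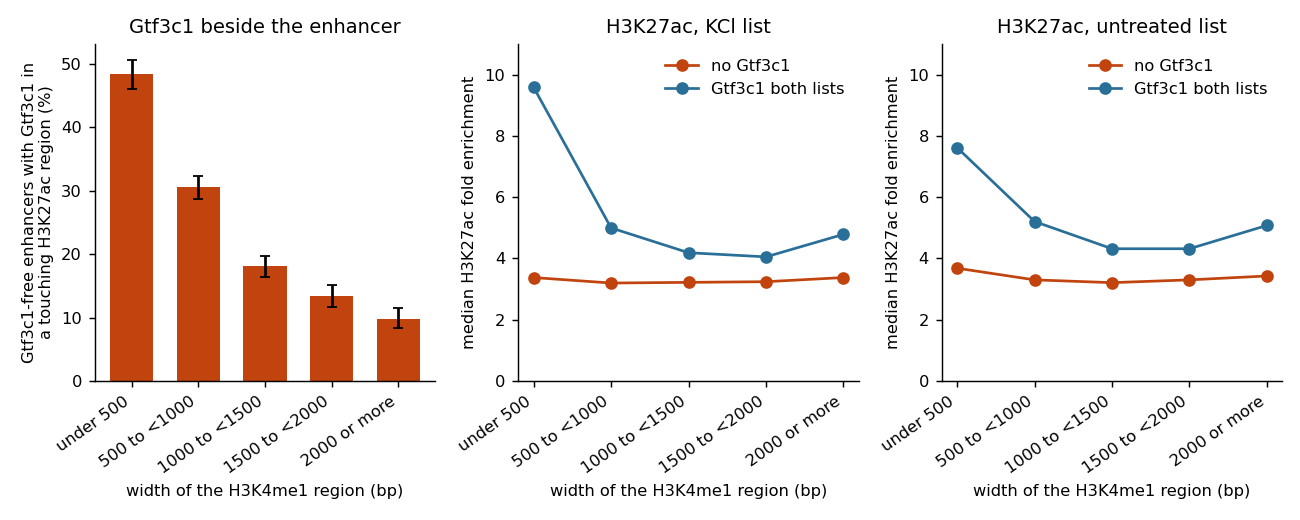
Enhancers by width of the H3K4me1 region (bp): left, the share of Gtf3c1-free enhancers with Gtf3c1 in a touching H3K27ac region (bars, with exact 95% intervals); middle and right, median H3K27ac fold enrichment in the KCl and untreated lists for Gtf3c1-free (orange) and Gtf3c1-bound (blue) enhancers. The share falls from bin to bin, 48.4% in the narrowest and 9.82% in the widest, and the orange medians stay between 3.20 and 3.68 while the blue ones lie higher in every bin.

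Among the Gtf3c1-free enhancers, those inside an acetylated domain with Gtf3c1 were unlike the rest. The 2435 with Gtf3c1 in a touching H3K27ac region had a median width of 638 bp and H3K27ac fold enrichments of 5.80 with KCl and 5.46 without treatment, in H3K27ac regions 2509 and 2372 bp wide. The 7111 others had a median width of 1222 bp and fold enrichments of 3.11 and 3.17, in H3K27ac regions 639 and 699 bp wide. The summit of the H3K27ac region lay within the enhancer in 24.4% (22.7 to 26.2) of the first kind with KCl and in 23.7% (22.0 to 25.4) without treatment. In the others it did in 85.2% (84.4 to 86.1) and 83.8% (83.0 to 84.7). Over all stable active enhancers the shares were 74% and 73.9%. In most of the 2435, then, the fold enrichment was that of a summit outside the H3K4me1 region.

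At the highest acetylation nearly all Gtf3c1-free enhancers were of the first kind. Of 500 Gtf3c1-free enhancers with an H3K27ac fold enrichment of 10 or more with KCl, 489 (97.8%, 96.1 to 98.9) had Gtf3c1 in a touching H3K27ac region and 3 (0.6%) held the summit, against 99.6% and 9.5% of all stable active enhancers of that strength. In untreated neurons 196 of 198 had Gtf3c1 in the region and 1 held the summit, against 99.8% and 13.4% of all. At a fold enrichment under 3 with KCl, 9.91% of 3814 had Gtf3c1 in the region and 82.7% held the summit, against 47.9% and 87.6% of all. Under 3 in untreated neurons the shares were 7.58% and 81.8% of 3061, against 43.3% and 86% of all. Strong H3K27ac regions were also wide. Those of Gtf3c1-free enhancers had median widths of 4160.5 bp at 10 or more and 470 bp under 3 with KCl, and 6709 and 488 bp in untreated neurons. A wide region has more room for Gtf3c1 and for a summit outside the enhancer, and the part of width in these shares was not tested. The Gtf3c1-free share of stable active enhancers was 51.7% under 3 and 19.4% at 10 or more with KCl, and 55.2% and 17.8% in untreated neurons.

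**Figure D3:**
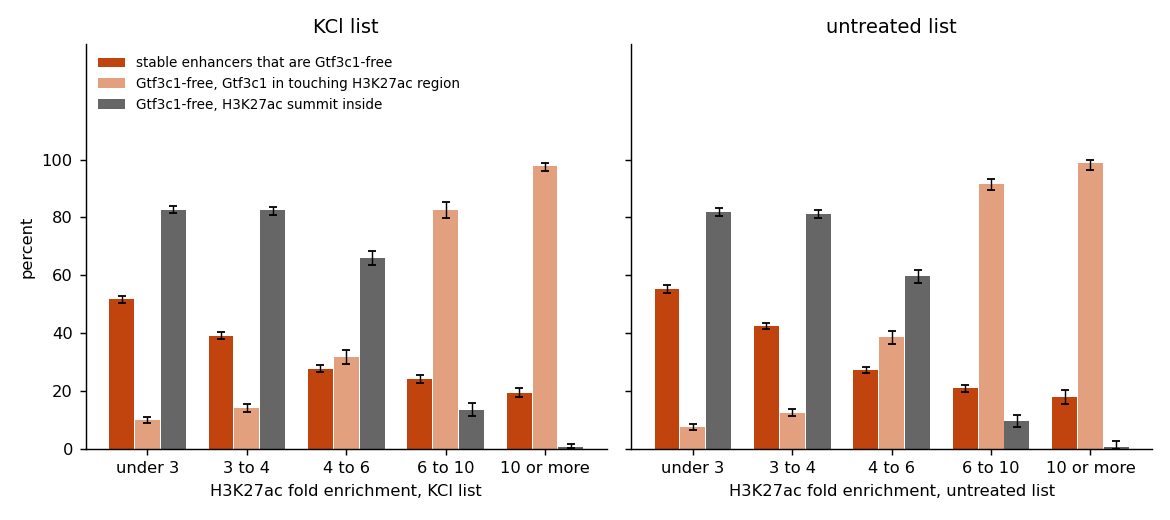
Shares (%) by bin of H3K27ac fold enrichment in the KCl list (left) and the untreated list (right): the Gtf3c1-free share of stable active enhancers (orange), and among Gtf3c1-free enhancers those with Gtf3c1 in a touching H3K27ac region (light) and those that held the H3K27ac summit (grey), with exact 95% intervals. Above a fold enrichment of 10, 97.8% and 99.0% of Gtf3c1-free enhancers had Gtf3c1 in the same acetylated region, against 99.6% and 99.8% of all stable active enhancers, and the region's median width was 4160.5 and 6709 bp, against 470 and 488 bp under 3.

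The enhancer at Pafah1b1, which encodes the neuronal migration protein LIS1, had the highest H3K27ac among Gtf3c1-free enhancers with KCl. It lay in the gene at chr11:74719819-74721563, with fold enrichments of 18.9 with KCl and 10.7 without treatment. Its H3K27ac summits were 2956 and 2962 bp from the H3K4me1 summit, and Gtf3c1 was 501 bp away. The next was near Kmt2e, a gene of the histone methyltransferase family, with 18.2 with KCl and 2.54 without treatment. An enhancer near the serine tRNA gene n-TSaga9 had 17.4 with KCl and 10.5 without treatment. In untreated neurons the leading enhancers were in Phip (chr9:82976580-82977705), with 16.2 with KCl and 16.9 without treatment, and at the glutamate tRNA gene n-TEttc7, where 2 enhancers shared an H3K27ac region of 12.3 and 16.4. With predicted models left out, the noncoding gene Chaserr was the nearest to another 2, at 52306 and 53997 bp. They shared an H3K27ac region of 16.7 with KCl and 15.8 without treatment. In all of these named enhancers a touching H3K27ac region held Gtf3c1, at distances of 79 to 1152 bp from the enhancer.

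H3K4me1 itself was highest at Gtf3c1-free enhancers of the other kind. The enhancer in Ksr1, which encodes a scaffold of the MAP kinase cascade, at chr11:79030699-79031828, had an H3K4me1 fold enrichment of 20.1 with KCl and 19.2 without treatment. Its H3K27ac was 4.59 and 4.70, with the summits 18 and 3 bp from that of H3K4me1, and Gtf3c1 was 11493 bp away. The next 4 were near Pomgnt2, a glycosyltransferase gene, and Slc35c2, and in Tmem266 and Sgcb, which encodes beta-sarcoglycan, with H3K4me1 of 14.8, 20.8, 10.6 and 11.8 with KCl and 19.01, 18.8, 18.3 and 18.1 without treatment. All 5 held both H3K27ac summits, and in none did a touching H3K27ac region hold Gtf3c1.

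Farthest from Gtf3c1 were 2 enhancers of chromosome 14, at chr14:4182969-4183254 and chr14:4499604-4500161, with distances of 1925284 and 1608377 bp. With predicted models left out, their nearest gene was the pseudogene Esd-ps, 1130431 and 1447066 bp off. Both lay within 5 kb of a RefSeq gene end when predicted models were counted. H3K27ac fold enrichments of these 2 enhancers were 5.81 and 3.92 with KCl and 4.57 and 4.44 without treatment. An enhancer near the vomeronasal receptor gene Vmn2r87 was 696266 bp from Gtf3c1, one in the sarcoglycan gene Sgcz 601681 bp, and one on chromosome 7 407947 bp. The nearest gene to the last, predicted models left out, was the pseudogene Ube2nl at 517372 bp. Whether reads could be placed uniquely in the sequence around these enhancers is not known from the lists, so that a region there without Gtf3c1 and one without placed reads cannot be told apart.

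H3K27ac differed little between KCl and untreated neurons at most Gtf3c1-free enhancers. The rule itself required H3K27ac in both lists, which kept 26177 of the 39381 distal regions acetylated without treatment. Regions listed with H3K27ac in 1 condition only were thus left out beforehand, also from the comparison groups. This choice favours ratios near 1. The fold enrichments of separate libraries were set side by side without adjustment, and at 89.7% of the enhancers the strongest KCl and untreated H3K27ac regions overlapped each other. The median ratio of KCl over untreated was 0.991 in Gtf3c1-free and 1.02 in Gtf3c1-bound enhancers, and 0.996 over all stable active enhancers. A ratio of 1.5 or more was found at 908 Gtf3c1-free enhancers (9.51%, 8.93 to 10.1) and 10.9% of Gtf3c1-bound ones, against 10.3% of all. A ratio of 1/1.5 or less was found at 827 (8.66%, 8.11 to 9.25) and 8.78%, against 8.79%. Both shares in Gtf3c1-free enhancers were thus close to those of stable active enhancers as a whole.

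Many of these ratios came from enhancers that did not hold their own H3K27ac summit. Where the summit lay inside the enhancer in both lists, median H3K27ac was 3.11 with KCl and 3.17 without treatment in 5650 Gtf3c1-free enhancers, and 4.05 and 4.44 in 6529 Gtf3c1-bound ones. Ratios of 1.5 or more made up 4.60% of these Gtf3c1-free enhancers (260, interval 4.07 to 5.18) and 5.79% of the Gtf3c1-bound ones, against 5.1% over all with both summits inside. Ratios of 1/1.5 or less made up 5.59% (316, interval 5.01 to 6.22) and 10.1%, against 8.35%. This choice of enhancers was made after the data had been seen.

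The extreme ratios show the same geometry. Among 2299 Gtf3c1-free enhancers with a fold enrichment of 5 or more in either list, the largest ratio, 7.18, belonged to the enhancer near Kmt2e at chr5:23429533-23430138. With KCl it touched an H3K27ac region 11481 bp wide whose summit was 3756 bp off, while in untreated neurons it held a region of its own, 424 bp wide. Enhancers in Phip, Tmem178b and Sik3, which encodes a salt-inducible kinase, and near the corepressor gene Irf2bp2 had ratios of 7.09, 6.55, 6.44 and 6.23. Their H3K27ac regions were 5083, 6937, 6272 and 15903 bp wide with KCl and 385, 440, 414 and 354 bp wide without treatment. The smallest ratio, 0.152, was near Mir137, a microRNA gene of neuronal differentiation, at chr3:118428220-118428520, with 2.18 with KCl and 14.3 without treatment, in regions 272 and 9867 bp wide. In Atp2b2, which encodes a plasma membrane calcium pump, in Myo1d, an unconventional myosin gene, in the noncoding gene D5Ertd615e and near Plppr5 the ratios were 0.199, 0.211, 0.211 and 0.233. In all 10 the higher value came with the wider H3K27ac region, whose summit lay outside the enhancer.

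H3K4me1 persisted with KCl. It was listed again at 9062 Gtf3c1-free enhancers (94.9%, 94.5 to 95.4) and at 98.8% of Gtf3c1-bound ones, against 97.4% of all stable active enhancers. The KCl list of H3K4me1 was not used by the rule, but H3K27ac with KCl was required of these enhancers and of both comparison groups. The share over all H3K4me1 regions was not counted. Among enhancers listed in both, the median H3K4me1 fold enrichment with KCl was 6.54 in Gtf3c1-free and 10.07 in Gtf3c1-bound enhancers. A ratio of KCl over untreated of 1.5 or more was found in 16.1% of Gtf3c1-free (1456 of 9062) and 9.75% of Gtf3c1-bound enhancers, against 12.4% of all. A ratio of 1/1.5 or less was found in 5.16% and 3.61%, against 4.72%, so both tails were wider in the Gtf3c1-free enhancers. The differences in persistence and in ratios of 1.5 or more were smaller in every bin of width. Under 500 bp H3K4me1 was listed again at 80.0% (78.2 to 81.8) of Gtf3c1-free and 77.3% (72.7 to 81.4) of Gtf3c1-bound enhancers, and at 2000 bp or more at 100% of both. Ratios of 1.5 or more made up 31.8% and 32.5% under 500 bp, 12.2% and 12.5% at 1000 to under 1500 bp, and 6.64% and 6.65% at 2000 bp or more. Ratios of 1/1.5 or less remained more frequent in Gtf3c1-free enhancers at 1000 to under 1500 bp (6.45%, 5.45 to 7.57, and 3.45%, 2.46 to 4.71) and at 2000 bp or more (5.37%, 4.25 to 6.67, and 3.50%, 3.03 to 4.02), but under 500 bp they were 2.86% and 2.77%.

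Rpc155 was rare at Gtf3c1-free enhancers. With KCl it overlapped 84 of them (0.880%, 0.702 to 1.09) and 1159 Gtf3c1-bound enhancers (12.7%, 12.04 to 13.4), against 5.37% of all stable active enhancers. In untreated neurons it overlapped 330 (3.46%, 3.10 to 3.84) and 2983 (32.7%, 31.8 to 33.7), against 15.9%. Rpc155 was in both lists at 15 Gtf3c1-free (0.157%) and 760 Gtf3c1-bound enhancers (8.34%), against 3.15% of all. The untreated Rpc155 list was longer, and with both lists at the length of the KCl list the untreated shares were 0.576% in Gtf3c1-free and 13.3% in Gtf3c1-bound enhancers, which turned the order of the conditions in Gtf3c1-free enhancers.

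The difference from Gtf3c1-bound enhancers was seen in every bin of width. Under 500 bp, Rpc155 was at 0.468% of Gtf3c1-free and 8.29% of Gtf3c1-bound enhancers with KCl, and at 1.14% and 18.4% without treatment. At 2000 bp or more the shares were 1.48% and 15.1% with KCl, and 6.57% and 38.9% without treatment. Within the Gtf3c1-free enhancers the untreated share was 5.08% (4.27 to 6.00) where Gtf3c1 was farther than 10 kb, 2.44% (2.00 to 2.95) at distances of 1 to 10 kb and 3.50% (2.84 to 4.27) up to 1 kb. With KCl the shares were 0.924%, 0.629% and 1.24% in the same order. The median widths were 1287.5, 1121 and 772 bp, and the part of width in these shares was not tested. The Rpc155 regions of Gtf3c1-free enhancers had median fold enrichments of 3.45 with KCl and 3.40 without treatment, where those of Gtf3c1-bound enhancers had 3.81 and 3.57 and the whole lists 3.78 and 3.57. Most Rpc155 regions were thus of low fold enrichment, at Gtf3c1-free enhancers and elsewhere.

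**Figure D4:**
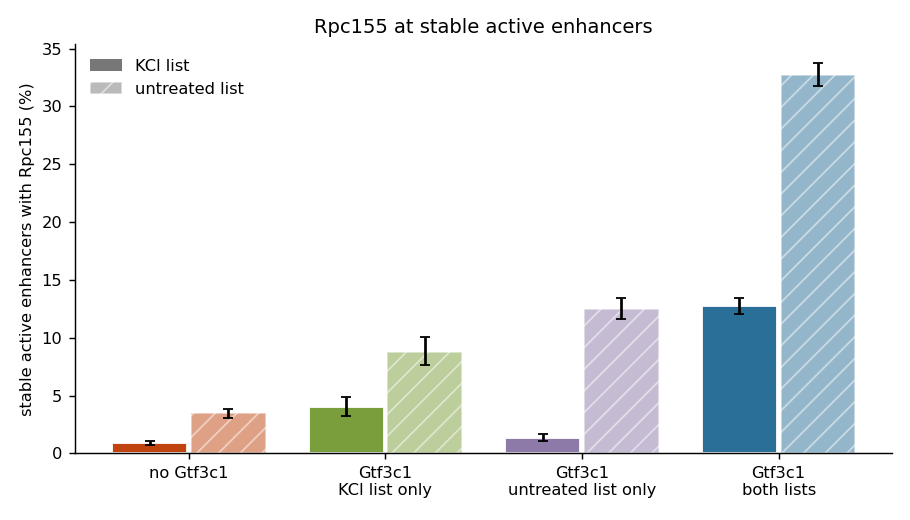
Share (%) of stable active enhancers that overlapped an Rpc155 region of the KCl list (solid bars) or the untreated list (hatched bars), by Gtf3c1 class, with exact 95% intervals. Gtf3c1-free enhancers had 0.880% and 3.46%, and enhancers with Gtf3c1 in both lists 12.7% and 32.7%.

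One Gtf3c1-free enhancer had strong Rpc155. Klrb1c, which encodes a lectin-like receptor of natural killer cells, was the nearest gene at 18590 bp, predicted models left out. The enhancer lay at chr6:128759211-128759895, with Rpc155 fold enrichments of 48.9 with KCl and 51.1 without treatment. Its H3K27ac was 13.9 and 11.2, and the nearest Gtf3c1 region was 71 bp away. The next highest Rpc155 values with KCl were 5.99 near the kinase gene Pak7, 4.90 near Arhgap20, 4.36 in Cisd2 and 4.36 at an enhancer 50796 bp from Mir7234. The first 3 of these had Gtf3c1 within 34 to 96 bp, and the last had it 6089 bp away. In untreated neurons the next were 7.30 near the zinc finger gene Zfp84, 5.43 in the chloride channel gene Best3, 5.26 in the kinase gene Cilk1 and 5.18 in the collagen gene Col18a1. Of these 4, the enhancers near Zfp84 and in Cilk1 had Gtf3c1 within 178 and 215 bp, and those in Best3 and Col18a1 at 1347 and 18883 bp.

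Gtf3c1-free enhancers lay inside genes less often. The H3K4me1 summit was inside a RefSeq gene in 5732 (60.0%, 59.1 to 61.03) of Gtf3c1-free and 74.1% of Gtf3c1-bound enhancers, against 67.4% of all stable active enhancers. By width the shares were 59.4% and 85.0% under 500 bp, against 66.5% of all, 59.2% and 67.3% at 1000 to under 1500 bp, and 65.3% and 76.5% at 2000 bp or more, against 73.1% of all. The share in Gtf3c1-free enhancers was lower at longer distances from Gtf3c1, being 70.1% up to 1 kb, 61.3% at 1 to 10 kb, 47.7% beyond 10 kb and 40.1% beyond 50 kb. Where the enhancer was in a protein-coding gene, Gtf3c1 lay within 1 kb of an end of that gene in 73.9% (72.6 to 75.1) of Gtf3c1-free and 83.1% (82.2 to 84.0) of Gtf3c1-bound cases, against 79% of all. Counted once per gene, Gtf3c1 lay within 1 kb of an end in 1670 of the 2334 genes that held a Gtf3c1-free enhancer (71.6%, 69.7 to 73.4) and in 78.6% of the 2809 that held a Gtf3c1-bound one, against 74.8% of the 4821 that held any stable active enhancer and 53.0% of all 20665 protein-coding genes. Position along the gene was read only where its strand was available. This held for 3787 of 4873 Gtf3c1-free and 4732 of 6222 Gtf3c1-bound enhancers in protein-coding genes. Of these, 31.7% and 31.9% lay in the 25% of the gene's length nearest the 5′ end, against 32.2% of all.

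The 10 protein-coding genes that held most Gtf3c1-free enhancers follow by their counts. Inside protein-coding genes as a whole 4873 of 15765 stable active enhancers were Gtf3c1-free, and over all stable active enhancers 36.5% were. In the 10 genes the share ran from 28.0% in Celf2 to 73.7% in Babam2, and gene length from 208 kb (Efcab6) to 1973 kb (Dlg2). The part of gene length in these counts was not tested. Celf2, which encodes an RNA-binding splicing regulator, held 42 of its 150 stable active enhancers as Gtf3c1-free ones, and Msra, a methionine sulfoxide reductase gene, 33 of 84. Babam2, which encodes a subunit of a BRCA1 complex, held 28 of 38, and Sox5, a transcription factor gene of deep-layer neurons, 28 of 66. The counts were 26 of 87 in Dlg2, which encodes a postsynaptic scaffold protein, 25 of 42 in Efcab6, 21 of 37 in the histone deacetylase gene Hdac9, 20 of 38 in Ldlrad3, 19 of 36 in Pam, which encodes a peptide-amidating enzyme, and 18 of 47 in Ldb2. Of the 4821 protein-coding genes that held a stable active enhancer, 2334 held at least 1 Gtf3c1-free one, 213 held 5 or more (809 held 5 or more of any kind), and 816 held no stable active enhancer of another kind. In 673 of these 816 the gene held a single stable active enhancer, as did 2341 of the 4821. The 7 with the most of these, chosen after their counts were seen, were Pxylp1 and the glutamate transporter gene Slc1a2 with 5 each and Acvr1c, Astn2, Hpse2, Rtn4 and Spp2 with 4 each. By chromosome the Gtf3c1-free share of stable active enhancers ran between 32.9% on chromosome 17 and 42.7% on chromosome 13.

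Near listed genes the share of stable active enhancers that were Gtf3c1-free differed widely. Over all protein-coding genes, 33.6% of the stable active enhancers within 50 kb were Gtf3c1-free. Near 14 GABAergic neuron genes 17 of 21 were (81.0%, 58.1 to 94.6), and near 10 astrocyte genes 11 of 17 (64.7%, 38.3 to 85.8). Near 15 glutamatergic neuron genes the count was 62 of 171 (36.3%, 29.1 to 43.9). Near 23 synaptic genes it was 44 of 189 (23.3%, 17.5 to 30.0), and near 20 delayed activity-regulated genes 15 of 55 (27.3%, 16.1 to 41.0). Near 32 immediate-early genes it was 16 of 87 (18.4%, 10.9 to 28.1). These enhancers share genes and H3K27ac regions, so the intervals understate the error.

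**Figure D5:**
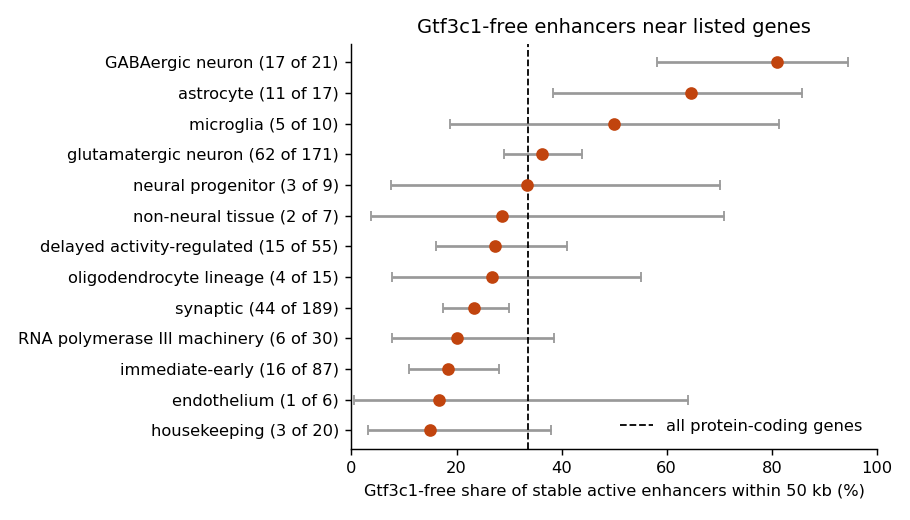
Gtf3c1-free share (%) of the stable active enhancers within 50 kb of the genes of each list (points, with exact 95% intervals and counts), with the share over all protein-coding genes (33.6%) as a dashed line. GABAergic (81.0%) and astrocyte (64.7%) genes lie to its right, and immediate-early (18.4%) and synaptic (23.3%) genes to its left.

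The remaining lists had few enhancers. The counts were 5 of 10 for microglia, 3 of 9 for neural progenitors, 4 of 15 for the oligodendrocyte lineage, 2 of 7 for non-neural tissues, 1 of 6 for endothelium, 6 of 30 for the RNA polymerase III machinery and 3 of 20 for housekeeping genes. All 3 of the progenitor list lay near Sox2, a transcription factor gene of neural stem cells, with H3K27ac of 3.28 to 3.65 with KCl and 2.79 to 3.81 without treatment. The interval of each of these 7 lists took in the share over all protein-coding genes.

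GABAergic neurons release the inhibitory transmitter made by the decarboxylase that Gad1 encodes and loaded into vesicles by the transporter of Slc32a1, and the Dlx genes specify these cells. At the neighbours Dlx5 and Dlx6 all 5 stable active enhancers were Gtf3c1-free, with H3K27ac of 3.51, 3.78, 3.92, 4.46 and 4.73 with KCl and 2.67, 4.06, 4.06, 4.06 and 2.92 without treatment. All 5 KCl values lay in a narrow range, and Gtf3c1 was 2154 to 26265 bp away. The first pair carried Rpc155 in untreated neurons, with fold enrichments of 3.23 and 2.89. At Dlx1 and Dlx2 both enhancers were Gtf3c1-free, with 3.38 and 4.73 with KCl and 2.67 and 3.17 without treatment. Gad1 had 3 of 5, in a KCl H3K27ac region of 5.17 that all 3 shared, with 2.79, 3.07 and 3.07 without treatment. Slc32a1 had 2 of 2, the transcription factor gene Lhx6 and the somatostatin gene Sst 1 of 1 each, and the neuropeptide Y gene Npy 3 of 5. Gad2, Pvalb, Vip, Sox6 and Erbb4 had no stable active enhancer within 50 kb.

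H3K27ac at the 17 enhancers near the GABAergic genes ran from 2.70 to 5.17 with KCl and from 2.67 to 4.06 without treatment. The medians were 3.92 and 3.07, against 3.24 and 3.31 at Gtf3c1-free enhancers near all protein-coding genes. In 4 of the 17 a touching H3K27ac region held Gtf3c1. The ratio of KCl over untreated was 1.5 or more at 5 of the 17 (3 at Gad1, which share 1 H3K27ac region with KCl, 1 at Slc32a1 and 1 at Dlx5), against 9.51% of Gtf3c1-free and 10.3% of all stable active enhancers, and 1/1.5 or less at none, against 8.66% and 8.79%. The 21 stable active enhancers near these genes were narrow, with a median width of 883 bp, against 1616 bp over all 26177. Under 1000 bp all 13 were Gtf3c1-free, against 62.1% over all, and from 1000 bp upward 4 of 8 were, against 26.8%. With a window of 100 kb the GABAergic share was 64.1% (47.2 to 78.8), against 34.5% over all protein-coding genes. At a q of 1e-05 or lower in all lists it was 71.4% (29.0 to 96.3), and this interval took in the 42.5% over all. In chromatin of a mixed culture a mark carried by few cells and a weak mark in all cells cannot be told apart.

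Of the 11 astrocyte enhancers, 7 lay at Slc1a2 and 3 at Slc1a3, which encode glial glutamate transporters, and 1 at Aldh1l1. Slc1a2 had 7 of its 8 stable active enhancers without Gtf3c1, with H3K27ac of 2.43 to 4.19 with KCl and 2.21 to 5.59 without treatment. Slc1a3 had 3 of 6, Aldh1l1 1 of 1, and Aqp4 and S100b 0 of 1 each. Gfap, Sox9, Gja1, Aldoc and Glul had no stable active enhancer within 50 kb. The high share of the astrocyte list thus came mostly from the single gene Slc1a2. The stable active enhancers of the astrocyte list were not narrow (median 1952 bp), and from 1000 bp upward 8 of 13 were Gtf3c1-free.

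Near the glutamatergic genes, which mark the excitatory neurons of the cortex, the Gtf3c1-free enhancers were more strongly acetylated, with medians of 5.74 with KCl and 4.38 without treatment. In 35 of the 62 a touching H3K27ac region held Gtf3c1. Tbr1, a transcription factor gene of deep-layer neurons, had 3 of 4, all in a region of 14.6 with KCl and 12.8 without treatment. Bcl11b had 11 of 20, Foxp1 12 of 26, Mef2c 8 of 37 and Fezf2 4 of 7.

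Near immediate-early genes, whose transcription starts within minutes of depolarization, the stable active enhancers were strongly acetylated as a whole, with medians of 9.72 with KCl and 5.46 without treatment. The 16 Gtf3c1-free ones had medians of 4.46 and 3.87. Gtf3c1 was in the KCl list only at 25 of the 87 stable active enhancers (28.7%), against 10.1% near all protein-coding genes. By width, 1 of 13 enhancers under 1000 bp and 15 of 74 wider ones were Gtf3c1-free, against 62.1% and 26.8% over all. With each enhancer given to its nearest protein-coding gene alone, at any distance, the immediate-early share was 40.2% (31.7 to 49.0). The share over all stable active enhancers was 36.5%, so the order turned. Here the assignment changed and the 50 kb limit was dropped together, and their parts were not separated.

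Fosb, which encodes an AP-1 subunit, had 2 Gtf3c1-free enhancers of 8. At chr7:19331214-19332247 H3K27ac was 14.2 with KCl and 10.5 without treatment, with Gtf3c1 472 bp away, and at chr7:19345573-19346993 it was 11.7 and 6.35, with Gtf3c1 138 bp away. Fos, the AP-1 subunit gene used as a marker of neuronal activity, had 1 of 4, at chr12:85445229-85446188, with 13.9 with KCl and 2.95 without treatment. This enhancer lay 27702 bp from Fos and 7033 bp from the nearest Gtf3c1 region, and a touching H3K27ac region held Gtf3c1. The single Gtf3c1-free enhancer of Arc, which encodes a synaptic protein, had 2.44 and 2.28, with Gtf3c1 13177 bp away. At the nuclear receptor gene Nr4a1 3 of 7 were Gtf3c1-free, with 4.19, 8.10 and 7.29 with KCl and 2.54, 7.11 and 5.84 without treatment. The enhancer near Maff went the other way, with 2.97 with KCl and 7.36 without treatment. In 8 of the 16 a touching H3K27ac region held Gtf3c1, 3 had a ratio of 1.5 or more and 1 a ratio of 1/1.5 or less, against 10.3% and 8.79% of all stable active enhancers.

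Gtf3c1-free enhancers lay among other enhancers about as often as Gtf3c1-bound ones did. Within 5 kb, 38.5% of Gtf3c1-free enhancers had a stable active enhancer with Gtf3c1, and 40.8% of Gtf3c1-bound ones had another such enhancer. Another Gtf3c1-free enhancer lay within 5 kb of 31.6% of Gtf3c1-free and 22.7% of Gtf3c1-bound enhancers. No other stable active enhancer lay within 5 kb of 45.2% and 47.4%. The 9546 Gtf3c1-free enhancers touched 8987 distinct strongest H3K27ac regions with KCl and 8923 without treatment.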

How the data were processed

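Per the submitters' processing notes, the tools were Bowtie2 for alignment and MACS2 for peaks, with GRCm38/mm10 as the build; the sources used here give no versions or settings. Each of the 8 deposited peak lists holds 1 region per line with its summit. Fold enrichment, as deposited by the authors, is the ratio of the summit's signal to the background around it. The authors' p and q are deposited as −log10 values, and the deposited score follows the −log10 q. The lists end near a q of 0.05, and no region was filtered further. Columns of per-sample values left unused numbered 0.

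Overlaps needed 1 bp. Distances to genes used 47042 RefSeq genes of GRCm38.p6 on chromosomes 1 to 19, 20665 of them protein-coding, and sequences came from 31365 RefSeq start windows of the same build. Of 208 listed symbols 203 lay on these chromosomes. Each enhancer took the strongest region that touched it in each list. Shares carry exact binomial (Clopper-Pearson) 95% intervals. The functions for overlap, distance, strongest region and place inside genes were tested on simulated regions, and the assignment of classes was not. The analysis used Python 3.11.15, numpy 2.4.6, pandas 2.3.3 and scipy 1.17.1, with matplotlib 3.10.9 for figures. No test was run, because each antibody and condition has 1 list.

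The enhancers and gene lists were chosen with earlier results of these data known, and positions in the H3K4me1, H3K27ac and Gtf3c1 lists chose the enhancers. Named enhancers were the 5 with the highest H3K27ac and the highest Rpc155 in each list, the 5 with the highest H3K4me1, the 5 farthest from Gtf3c1 and the 5 largest and smallest H3K27ac ratios where either value was at least 5. They carry the name of the gene that held them or had the nearest end, predicted models left out. The 10 genes with most Gtf3c1-free enhancers and the listed genes within 50 kb were named too, and a few of these are not reported here. Alternatives were stricter overlap and q, other distances, the KCl list of H3K4me1 as the base, 1 enhancer per H3K27ac region, 1 class of width, equal Rpc155 lists and other gene windows.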

Additional observations from a re-analysis of the deposited data

How the results depend on the processing

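Of 104 alternative values 53 stayed close to those reported, 50 moved and 1 reversed. That one was the immediate-early share with the nearest gene only and no limit of distance, at 40.15% against 36.47% of all stable active enhancers. The order of Gtf3c1-free and Gtf3c1-bound enhancers in Rpc155, H3K27ac, H3K4me1 with KCl and place inside genes was kept under every alternative that gave a value, though within the bin of width under 500 bp the order of H3K4me1 with KCl turned (80.0% and 77.3%). No paired analysis was possible because each antibody and condition has 1 list and no replicate numbers. The lists hold no counts, so depth was not examined.

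In the following, shares are of Gtf3c1-free enhancers, and medians are of H3K27ac fold enrichment. When overlaps had to cover 50% or more of the shorter region, Gtf3c1 lay in a touching H3K27ac region at 27.33%, H3K4me1 was listed with KCl at 94.4% and 58.7% lay inside genes. With a q of 1e-05 or lower in all lists there were 6194 enhancers. Their shares were 31.5% for Gtf3c1 in the H3K27ac region, 0.3552% and 1.066% for Rpc155 with KCl and without treatment, 96.79% for H3K4me1 with KCl, 66.76% inside genes and 31.43% near immediate-early genes (42.54% over all genes), with medians of 4.457 with KCl and 4.444 without treatment. With that q for Gtf3c1 alone the number was 14509, the shares were 20.3%, 1.33%, 5.031%, 96.22%, 65.22% and 34.48% (54.25% over all genes), and the medians 3.377 and 3.457, in the same order.

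With no Gtf3c1 within 1 kb, Gtf3c1 lay in the H3K27ac region at 9.287%, the medians were 3.107 with KCl and 3.19 without treatment, H3K4me1 with KCl stood at 95.4% and 56.19% lay inside genes. More than 5 kb from gene ends the values were 20.94%, a KCl median of 3.107 and 57.82% inside genes. With the KCl list of H3K4me1 as the base, Gtf3c1 lay in the H3K27ac region at 23.47%, and H3K4me1 with KCl then has no value. With 1 enhancer for each untreated H3K27ac region the values were 16.1%, medians of 3.107 and 3.174, and 96.29% for H3K4me1 with KCl. At widths of 500 to 1000 bp there were 2525 enhancers, with 30.53%, a KCl median of 3.198, untreated Rpc155 at 2.218%, H3K4me1 with KCl at 96.51%, 58.73% inside genes, and 10.0% near immediate-early and 100% near GABAergic genes (54.27% over all genes). Equal Rpc155 lists gave 0.5762% without treatment.

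Requiring both H3K27ac summits inside the enhancer, chosen after seeing the data, left 5650 enhancers, with Gtf3c1 in the H3K27ac region at 4.159%, medians of 3.107 and 3.174, untreated Rpc155 at 4.301%, H3K4me1 with KCl at 98.57% and 57.77% inside genes.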
